A study of Apostichopus japonicus with 12 samples.

Results

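The genes described here are the muscle contractile genes of the sea cucumber Apostichopus japonicus, read in its intestine under heat stress. They are the 135 of 30221 gene models whose deposited description names myosin, tropomyosin, troponin, titin, twitchin, calponin, paramyosin, filamin, actinin, transgelin, myophilin or muscle, leaving out acetylcholine receptors and phosphofructokinase. The rule reads the descriptions alone, and was set with earlier results in view. RNA was sequenced from 12 animals of around 100 g, 3 in each of 4 groups. The heated groups were held at 26 °C for 6 h, at 26 °C for 48 h and at 30 °C for 6 h, and the control group stayed at 18 °C. The water was warmed by 2 °C per hour and the hours were counted once the target was reached, so animals at 30 °C spent longer warming than animals at 26 °C. The labels give the controls no time of their own, and the same 3 control animals serve all 3 heated groups. Each library came from 1 animal and from whole intestine, so fewer muscle cells and less of a transcript per muscle cell cannot be told apart.

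Muscle shortens when the heads of myosin, the motor of the thick filament, pull on actin in the thin filament. Tropomyosin, troponin and calponin sit on the thin filament and control when the heads may bind, while light chains wrapped round the neck of each myosin tune its pull and are phosphorylated by myosin light chain kinase. Very long proteins built of immunoglobulin and fibronectin domains, such as titin, twitchin and unc-89, hold the filaments in register, and alpha-actinin and filamin tie actin filaments together. In the gut wall of sea cucumbers muscle cells move the contents along. The word search also brings in nonmuscle and unconventional myosins, which move cargo or membranes in most cell types, and a few proteins that carry muscle in their name only.

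By the wording of their descriptions the 135 models fall into 9 classes. These are 5 of the thin filament, 5 myosin light chains, 10 muscle myosin heavy chains and paramyosin, 48 giant immunoglobulin-domain proteins, 7 cross-linkers, 14 light chain kinases and striated muscle kinases, 6 nonmuscle myosin II heavy chains, 26 unconventional myosins and 14 that are muscle in name only. Levels are FPKM, fragments per kilobase of gene scaled by the authors for depth. Of the 135, 97 averaged 0.5 FPKM or more and were tested among 18729 genes. Of the other 38, 33 had at least 1 read somewhere and 5 had 0 reads in every library. A read in every one of the 12 libraries was found for 54 models, and 41 averaged at least 5 FPKM. The 54 include 12 unconventional myosins, 4 nonmuscle myosin II heavy chains and 2 models that are muscle in name only. Muscle transcripts were among those present in this tissue, led in summed FPKM by the thin filament and the light chains. By reads the cross-linkers led in controls, with a mean of 21.4% of the reads on the 135 models. The thin filament had 16.1% and the light chains 14.35% there.

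No muscle gene passed the test in any comparison. After 6 h at 30 °C 0 of 97 were called against control, where 0.651% of all genes tested were called. For 6 h at 26 °C the count was again 0, against 0.0641% of all genes, and after 48 h at 26 °C it was 0, against 0.0% of all genes. Between 30 °C and 26 °C at 6 h 0 were called (0.246% of all genes), and between 48 h and 6 h at 26 °C 0 were called (0.0107% of all genes). The test for any difference among the 4 groups called 0 of 97 and 0.555% of all genes. These are limma's moderated tests on log2(FPKM + 1), with Benjamini-Hochberg adjustment over all 18729 genes at 0.05. The differences below are therefore given as values with their intervals, and none of them is a call.

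At an unadjusted p under 0.05 the counts of muscle genes were as follows, each beside the share of all genes. At 30 °C there were 9 against control, 9.28% of the 97 against 10.4% of all genes, with 7 higher (5.26% of all genes) and 2 lower (5.1%). At 26 °C there were 7 after 6 h (8.06% of all genes), with 1 higher (3.37%) and 6 lower (4.69%). After 48 h there were 2 (4.55% of all genes), with 0 higher (2.22%) and 2 lower (2.33%). Between 30 °C and 26 °C at 6 h there were 17, or 17.5% of the 97 against 11.7% of all genes, with 12 higher (6.7%) and 5 lower (4.99%). Between 48 h and 6 h at 26 °C there were 6 (7.01% of all genes), with 5 higher (4.09%) and 1 lower (2.92%). The median log2 change of the 97 was -0.32 in the 6 h animals at 26 °C, -0.01 in the 48 h animals and -0.18 at 30 °C. The same medians over all genes tested were -0.08, 0.03 and -0.07. The median of the 97 at 30 °C was 0.22 with a floor of 5 FPKM and lay between -0.36 and 0.06 with 1 animal left out, so its sign is not settled. No test set the muscle genes against the rest.

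**Figure D1:**
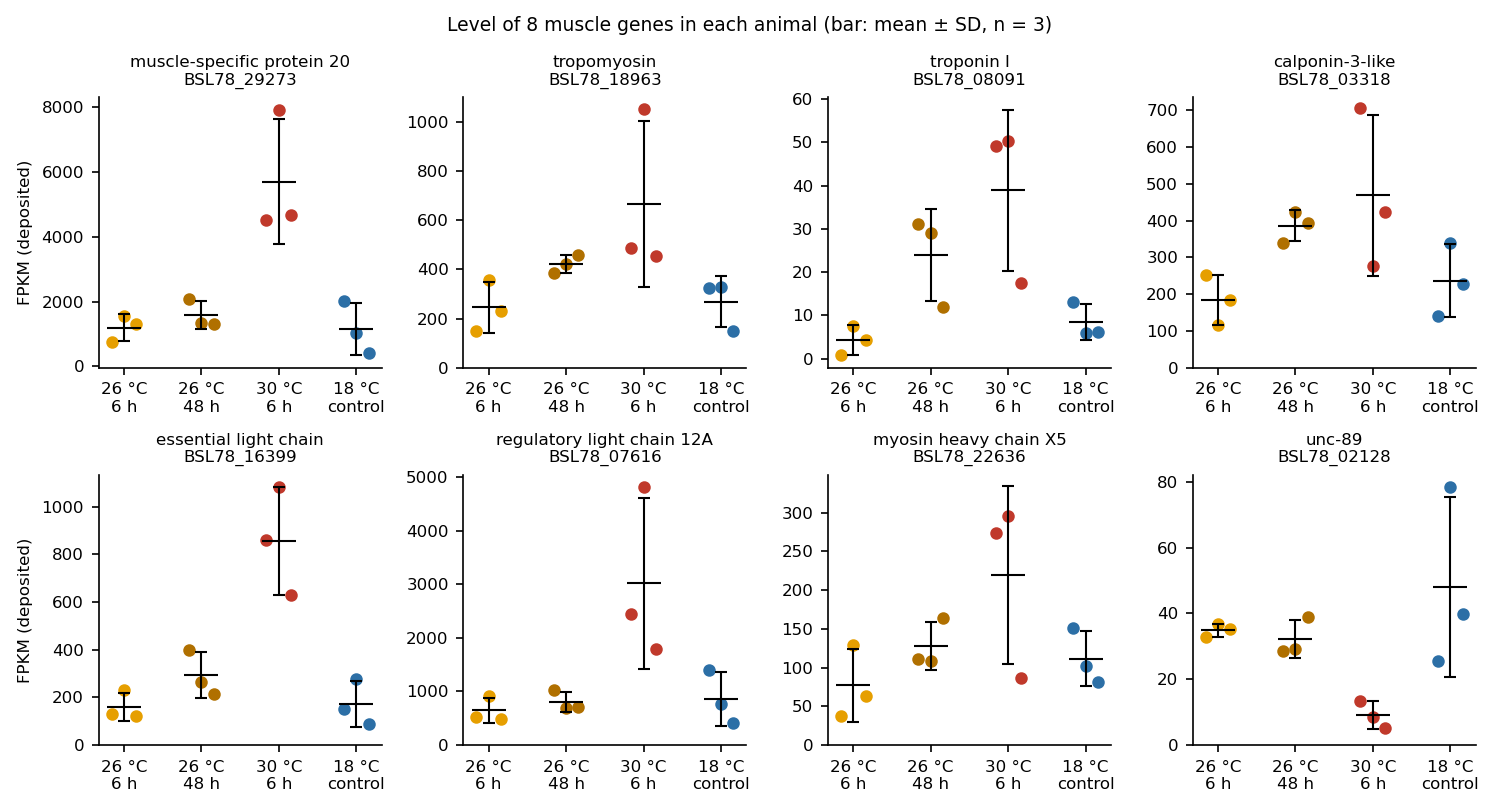
Deposited FPKM (linear axes, each panel with its own range) of 8 muscle genes in each animal, with the mean and SD of 3 animals per group as bars. At 30 °C all 3 animals lie above all 3 controls for muscle-specific protein 20, tropomyosin, troponin I and both light chains, and below them for unc-89.

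The most abundant muscle transcript, and the one with the largest change at 30 °C, was muscle-specific protein 20 (BSL78_29273, scaffold MRZV01002362.1, 33351 to 37383, minus strand). It is named after a Drosophila muscle protein of the calponin family, which binds actin, and it alone held 42750 of the 276407 reads on the 135 models. It stood at 4525, 7918 and 4657 FPKM in the animals at 30 °C, against 2016, 1021 and 407 FPKM in the control animals. All 3 heated animals were above all 3 controls, and the lowest of them had more than the highest control. The log2 change was 2.54 (SE 0.63, 95% interval 1.20 to 3.89, adjusted p = 0.109). The animals at 26 °C had 745, 1546 and 1297 FPKM after 6 h and 2092, 1346 and 1309.9 FPKM after 48 h. Both of those groups overlapped the control animals. Without control animal 3, the lowest of the controls, the log2 change at 30 °C was 1.94, and no adjusted p reached 0.05 whichever animal was left out.

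Tropomyosin (BSL78_18963) is the coiled coil that lies along actin and covers the sites where myosin binds. On deposited FPKM it was likewise highest at 30 °C, with a smaller difference from control. It had 486, 1053 and 455 FPKM at 30 °C, against 325, 330.2 and 150.3 FPKM in controls. The groups did not overlap, and the log2 change was 1.28 (SE 0.57, 95% interval 0.06 to 2.50, adjusted p = 0.454). The animals at 26 °C had 150.2, 357 and 229 FPKM after 6 h and 384, 422 and 457 FPKM after 48 h. The 48 h animals thus lay just above every control animal, and the 6 h animals overlapped the controls.

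Troponin I (BSL78_08091), the troponin subunit that holds contraction off until calcium arrives, was a low transcript with the widest swing between groups. It stood at 0.755, 7.67 and 4.34 FPKM in the 6 h animals at 26 °C, at 31.2, 28.9 and 11.9 FPKM in the 48 h animals, at 49.1, 50.2 and 17.5 FPKM at 30 °C and at 13.2, 5.85 and 6.12 FPKM in controls. At 30 °C all 3 animals were above all 3 controls and above all 3 animals at 26 °C for 6 h. The log2 change was 2.03 (SE 0.70, 95% interval 0.53 to 3.54, adjusted p = 0.308) at 30 °C against control. Between 30 °C and 26 °C at 6 h it was 3.06 (SE 0.70, 95% interval 1.56 to 4.57, adjusted p = 0.0907), the smallest adjusted p of the 97 in that comparison. Between 48 h and 6 h at 26 °C it was 2.42 (SE 0.70, 95% interval 0.91 to 3.92, adjusted p = 0.495). These values rest on few reads, since the lowest library held 1 read of this gene and the highest 104.

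Calponin-3-like (BSL78_03318), an actin-binding protein that in vertebrates slows the myosin motor, had 706, 276 and 425 FPKM at 30 °C, against 142, 340.5 and 228 FPKM in controls. These overlapped, with a log2 change of 0.96 (SE 0.56, 95% interval -0.24 to 2.17, adjusted p = 0.600). Its values at 26 °C were 252, 116 and 185 FPKM after 6 h and 340.0, 425 and 395 FPKM after 48 h. The fifth thin filament model is a nonmuscle actin II (BSL78_13826) that the word muscle brought in. It had 2.63, 1.08 and 19.4 FPKM at 30 °C, against 1.22, 0 and 0.206 FPKM in controls, and 1 animal at 30 °C held most of its reads. All 5 thin filament models had a log2 change above 0 at 30 °C, with a median of 1.95 and a range of 0.97 to 2.54. That median is the value of the low nonmuscle actin II itself. On values rescaled to a common sum tropomyosin and calponin-3-like changed sign, to -0.03 and -0.34, where the median of all genes tested was -0.85. After 48 h at 26 °C all 5 were again above 0, with a median of 0.73, and after 6 h at 26 °C 1 of 5 was, with a median of -0.34. Of all 18729 genes tested 8617 were above 0 at 30 °C, 9667 after 48 h at 26 °C and 8513 after 6 h.

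Among the light chains the largest change was that of the myosin-2 essential light chain (BSL78_16399, scaffold MRZV01000624.1, 298369 to 306651, minus strand), the chain that stiffens the neck of the myosin head. It stood at 861, 1081 and 628 FPKM at 30 °C, against 152, 278 and 88.9 FPKM in controls. The 3 heated animals were all above the highest control. The log2 change was 2.42 (SE 0.57, 95% interval 1.20 to 3.64, adjusted p = 0.0856), the smallest adjusted p of any muscle gene against control. On the whole reads behind the FPKM, fitted with limma's voom, it was 2.43 with an adjusted p of 0.0434, the only muscle gene called in any fit. In that comparison the test on log2(FPKM + 1) called 0.651% of all genes. The share that voom called is not given here, so this 1 call is not read as a result about muscle genes. The test on log2(FPKM + 1) did not call it under any alternative. Its level was 132, 229 and 123 FPKM after 6 h at 26 °C and 400.0, 264 and 212 FPKM after 48 h. Both groups overlapped the controls, and the log2 changes were -0.01 and 0.85.

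The regulatory light chain, which is phosphorylated to switch on smooth and nonmuscle myosin, is represented by 2 abundant models with different values. Regulatory light chain 12A (BSL78_07616) had 2437, 4819 and 1794 FPKM at 30 °C, against 1397, 773 and 410.4 FPKM in controls. Here too the groups did not overlap, and the log2 change was 1.85 (SE 0.60, 95% interval 0.57 to 3.14, adjusted p = 0.265). Regulatory light chain 12B (BSL78_17620) had 835, 628 and 822 FPKM at 30 °C, against 510.0, 903 and 723 FPKM in controls. These values overlapped widely and the log2 change was 0.12 (SE 0.51, 95% interval -0.98 to 1.22, adjusted p = 0.963), its sign turning to -0.04 with TMM scaling, to -1.19 on a common sum and to -0.10 without control animal 1. At 26 °C chain 12A averaged 645 ± 232 FPKM after 6 h and 809.7 ± 188 FPKM after 48 h, against 860.1 ± 499 FPKM in controls (SD, n = 3 each). The difference between the 2 models was not itself tested. A second essential light chain model (BSL78_23549) also overlapped, with 24.9, 22.8 and 64.5 FPKM at 30 °C, against 40.3, 32.7 and 69.1 FPKM in controls. It was picked out after its values were seen. Reads shared by models as alike as these light chains may have been split between them in the authors' counting, which the sources used here do not describe.

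The motor itself was carried mainly by 2 models described as striated muscle myosin heavy chain. Isoform X8 (BSL78_09828) had 237, 470.0 and 101 FPKM at 30 °C, against 351, 172 and 76 FPKM in controls. The spread among the 3 animals of either group was wider than the distance between the groups, and the log2 change was 0.43 (SE 0.67, 95% interval -1.01 to 1.88, adjusted p = 0.875). Leaving out 1 animal at a time moved it between -0.13 and 1.00. Isoform X5 (BSL78_22636) had 274, 296 and 86.9 FPKM at 30 °C, against 151, 102 and 81.4 FPKM in controls, with a log2 change of 0.83 (SE 0.63, 95% interval -0.53 to 2.18, adjusted p = 0.689). After 48 h at 26 °C isoform X8 stood at 245, 278 and 306 FPKM and isoform X5 at 111, 109 and 164 FPKM. At 26 °C for 6 h isoform X8 stood at 123, 86.8 and 150.3 FPKM and isoform X5 at 38, 129 and 63.7 FPKM. Of the 9 heavy chains tested 5 had a log2 change above 0 at 30 °C, with a median of 0.22. Paramyosin-like (BSL78_03590), named for the core protein of invertebrate thick filaments, had 4 reads over all 12 libraries and was not tested.

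The giant proteins had a median change below 0 at 30 °C, and unc-89 had the most negative value of the 97. The model BSL78_02128 (scaffold MRZV01000044.1, 1123496 to 1146459, plus strand) is described as muscle M-line assembly protein unc-89, which in Caenorhabditis elegans organises the middle of the thick filaments and is related to vertebrate obscurin. It had 13.5, 8.57 and 5.29 FPKM at 30 °C, against 25.7, 78.5 and 39.7 FPKM in controls. Every animal at 30 °C was below every control animal, and below every animal at 26 °C. The log2 change was -2.21 (SE 0.55, 95% interval -3.39 to -1.03, adjusted p = 0.114), with the adjusted p ranging from 0.0611 to 0.336 over the alternatives. The animals at 26 °C had 32.7, 36.8 and 35.1 FPKM after 6 h and 28.7, 29.1 and 38.9 FPKM after 48 h, within the range of the controls.

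Titin, which in vertebrate striated muscle is the elastic filament running between the ends of the sarcomere, is spread here over many short models. The 2 most abundant had similar profiles. BSL78_02142 stood at 162, 136 and 59.5 FPKM at 30 °C, against 132, 111 and 50.2 FPKM in controls, a log2 change of 0.28 (SE 0.58, 95% interval -0.96 to 1.52, adjusted p = 0.917). BSL78_29207, on another scaffold, stood at 139, 129 and 32 FPKM at 30 °C, against 96.4, 89.2 and 33.6 FPKM in controls, a log2 change of 0.33 (SE 0.65, 95% interval -1.08 to 1.73, adjusted p = 0.912). In both models animal 3 was the lowest of its group at 30 °C and among the controls. Twitchin (BSL78_00189), a titin relative that in molluscs and worms governs relaxation, had 110.0, 100.4 and 39.3 FPKM at 30 °C, against 52, 39.7 and 18.3 FPKM in controls, and a log2 change of 1.15 (adjusted p = 0.532). This twitchin model was chosen after its values were seen.

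A lower titin model, BSL78_03645, had the smallest p of the 97 in both comparisons of the 48 h animals at 26 °C. It had 0, 0.106 and 0.754 FPKM after 48 h, against 5.17, 4.80 and 14.3 FPKM after 6 h at the same temperature, and 5.43, 7.87 and 1.69 FPKM in controls. The 48 h animals were below every animal of the other groups at 26 °C and 18 °C. The model was also low at 30 °C, with 0.603, 1.99 and 1.85 FPKM, which overlapped the 48 h animals. The log2 change was -2.10 (SE 0.61, 95% interval -3.42 to -0.78, adjusted p = 0.866) against control and -2.71 (SE 0.61, 95% interval -4.04 to -1.39, adjusted p = 0.372) between 48 h and 6 h. In reads these are 0, 1 and 8 at 48 h, against 18, 23 and 104 at 6 h. Among the 3 muscle genes with the smallest p after 6 h at 26 °C were also 2 titin-like models. BSL78_02114 had 0, 0 and 0.511 FPKM after 6 h at 26 °C, against 1.03, 4.04 and 2.62 FPKM in controls (log2 -1.54, adjusted p = 0.513). BSL78_02138 had 0 reads in all 3 animals after 6 h at 26 °C, against 16.8, 5.12 and 0.811 FPKM in controls, a log2 change of -2.54 that is no fold since 1 group is at 0, and an adjusted p of 0.522. Both are near the limit of detection at this depth.

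Across the 31 giant models tested the median log2 change was -0.71 after 6 h at 26 °C, with 4 of 31 above 0, and -0.43 at 30 °C, with 10 of 31 above 0. After 48 h at 26 °C it was -0.17, with 10 of 31 above 0. The medians over all genes were -0.08, -0.07 and 0.03 in the same 3 comparisons, with 8513, 8617 and 9667 of 18729 above 0. Most of these models are low, so their log2(FPKM + 1) changes understate folds, and a model at 0 in a group has no fold at all.

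**Figure D2:**
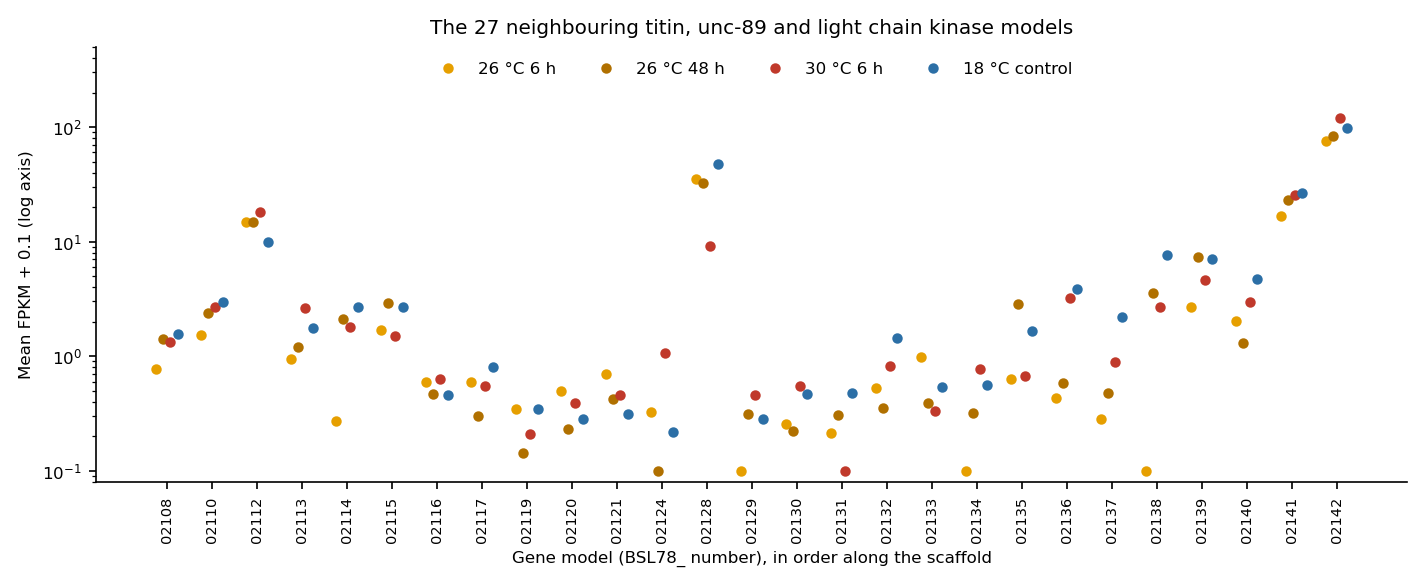
Mean FPKM plus 0.1 on a log axis for the 27 titin, unc-89 and light chain kinase models that lie on 1 scaffold, in their order along it, with 1 point per group (3 animals each). BSL78_02128 at 30 °C lies below the other 3 groups, while its abundant neighbours BSL78_02112 and BSL78_02142 at 30 °C lie above control.

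Of the 135 models 83 share a scaffold with another, and 27 lie on scaffold MRZV01000044.1 between 925448 and 1241534, among 35 models in that stretch. They are described as titin, titin-like, unc-89 or light chain kinase. Their means over the 12 libraries span 0.161 to 93.8 FPKM, with 13 under 1 FPKM and 5 at 5 FPKM or more. On deposited FPKM neighbours in this stretch did not share a level or a direction at 30 °C. BSL78_02112, an unc-89 model upstream of BSL78_02128, had 11.9, 29.2 and 12.6 FPKM at 30 °C, against 11.4, 10.5 and 7.56 FPKM in controls, and its log2 change was 0.71. BSL78_02141, next to the abundant titin model, had 35.6, 31.8 and 8.34 FPKM at 30 °C, against 35.1, 28 and 16.7 FPKM in controls. Whether neighbouring models are pieces of 1 gene was not tested, and they should not be counted as independent genes.

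On deposited FPKM the abundant cross-linkers overlapped the controls at 30 °C. Sarcomeric alpha-actinin (BSL78_04561), which anchors thin filaments to one another, had 192, 278 and 189 FPKM at 30 °C, against 247, 306 and 196 FPKM in controls, and a log2 change of -0.18 (SE 0.49, 95% interval -1.24 to 0.87, adjusted p = 0.939). It had 294, 207 and 214 FPKM after 6 h at 26 °C and 329, 244 and 187 FPKM after 48 h. In reads scaled only by each library's total on genes (CPM) it had 334, 397 and 226 CPM at 30 °C, against 532, 1081 and 1045 CPM in controls, and there all 3 animals at 30 °C were below all 9 others. Filamin-B (BSL78_10927), which joins actin filaments into a mesh, had 215, 216 and 119 FPKM at 30 °C, against 152, 165 and 84.6 FPKM in controls (log2 0.46). A smaller filamin-B model, BSL78_15703, had 16.2, 11.3 and 16.7 FPKM after 48 h at 26 °C, against 9.92, 1.80 and 5.05 FPKM after 6 h. These groups did not overlap, with a log2 change of 1.45 (SE 0.62, 95% interval 0.11 to 2.78, adjusted p = 0.672), and the control animals had 30.0, 11.5 and 10.1 FPKM.

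Of the kinases, the striated muscle preferentially expressed protein kinase (BSL78_10510), a relative of the light chain kinases, was the most abundant. It had 147, 159 and 185 FPKM at 30 °C, against 189, 132 and 91.7 FPKM in controls, a log2 change of 0.30 (SE 0.62, 95% interval -1.04 to 1.65, adjusted p = 0.916). At 26 °C it had 215, 237 and 64.3 FPKM after 6 h and 339, 231 and 119 FPKM after 48 h, a wide spread with no clear order of groups. Smooth muscle myosin light chain kinase (BSL78_10513), on the same scaffold and the enzyme that phosphorylates the regulatory chain, had 43.7, 135 and 21.9 FPKM at 30 °C, against 48.9, 45.8 and 24.5 FPKM in controls. In this kinase 1 animal at 30 °C stood far above the others, and the log2 change was 0.41 (adjusted p = 0.900). Another model of that name, BSL78_22736, had 0, 128 and 19.2 FPKM at 30 °C, against 0, 1.55 and 5.15 FPKM in controls. Its change of 2.46 at 30 °C, the rightmost point of its class in the plot of changes by role, again rested mainly on 1 animal.

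The myosins that serve other jobs had medians below 0 at 30 °C. Nonmuscle myosin II, called myosin-10 here after its human gene, drives cell shape and division. BSL78_09155 had 93.5, 74.1 and 29.1 FPKM at 30 °C, against 56.1, 145 and 66.1 FPKM in controls, and its neighbour BSL78_09156 had 38.8, 41.9 and 19.2 FPKM, against 39.3, 64.9 and 27.3 FPKM in controls. Their log2 changes were -0.46 (adjusted p = 0.838) and -0.38 (adjusted p = 0.862), and both groups overlapped. At 26 °C BSL78_09155 averaged 114 ± 34.4 FPKM after 6 h and 119.8 ± 22 FPKM after 48 h, against 89 ± 48.6 FPKM in controls (SD, n = 3 each). Of 5 nonmuscle heavy chains tested 1 had a change above 0 at 30 °C, with a median of -0.46, and 4 had after 48 h at 26 °C, with a median of 0.48.

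Among 22 unconventional myosins tested the median log2 change was -0.43 at 30 °C, with 4 above 0, and 0.21 after 6 h at 26 °C, with 12 above 0. Of all 18729 genes tested 8617 and 8513 were above 0 in these comparisons. Unconventional myosin-X-like (BSL78_27273), a motor of filopodia in vertebrate cells, had 60.6, 84.5 and 24.2 FPKM at 30 °C, against 78.5, 77.8 and 53 FPKM in controls (log2 -0.45). Its neighbour BSL78_27272 had 5.90, 16.8 and 7.67 FPKM at 30 °C, against 10.5, 6.52 and 6.74 FPKM in controls (log2 0.22). Myosin-VIIa-like (BSL78_09554), whose vertebrate relative works in the sensory hairs of the inner ear, had the smallest p of the 97 after 6 h at 26 °C. It had 11, 5.30 and 8.36 FPKM after 6 h at 26 °C, against 0.295, 2.73 and 2.69 FPKM in controls, without overlap, and a log2 change of 1.77 (SE 0.63, 95% interval 0.41 to 3.13, adjusted p = 0.499). After 48 h at 26 °C all 3 animals were again above all controls, with 5.59, 4.79 and 4.13 FPKM. Unconventional myosin-X BSL78_13968 stood lower, with 1.22, 0.392 and 1.05 FPKM after 48 h at 26 °C, against 6.97, 6.05 and 1.18 FPKM in controls (log2 -1.42, adjusted p = 1.00). Myosin-IIIb (BSL78_22068), chosen after its values were seen, had 0, 0 and 0.735 FPKM at 30 °C, against 3.60, 2.27 and 5.38 FPKM in controls, without overlap (log2 -1.93, adjusted p = 0.216).

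Of the 14 models with muscle in their name only, 6 were tested. The muscle-specific form of nascent polypeptide-associated complex subunit alpha (BSL78_11240), which binds proteins as they leave the ribosome, had 3.25, 3.78 and 5.30 FPKM after 6 h at 26 °C, against 8.98, 11.4 and 13.9 FPKM in controls. These groups did not overlap, and the log2 change was -1.28 (SE 0.57, 95% interval -2.51 to -0.06, adjusted p = 0.601). At 30 °C it had 23.2, 10.7 and 21.7 FPKM. The muscle, skeletal receptor tyrosine-protein kinase (BSL78_14733), in vertebrates the organiser of the nerve-muscle junction, had 2.62, 1.85 and 0 FPKM at 30 °C, against 1.30, 20.3 and 2.46 FPKM in controls. One control animal held most of its reads, and the log2 change was -1.34 (adjusted p = 0.651).

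**Figure D3:**
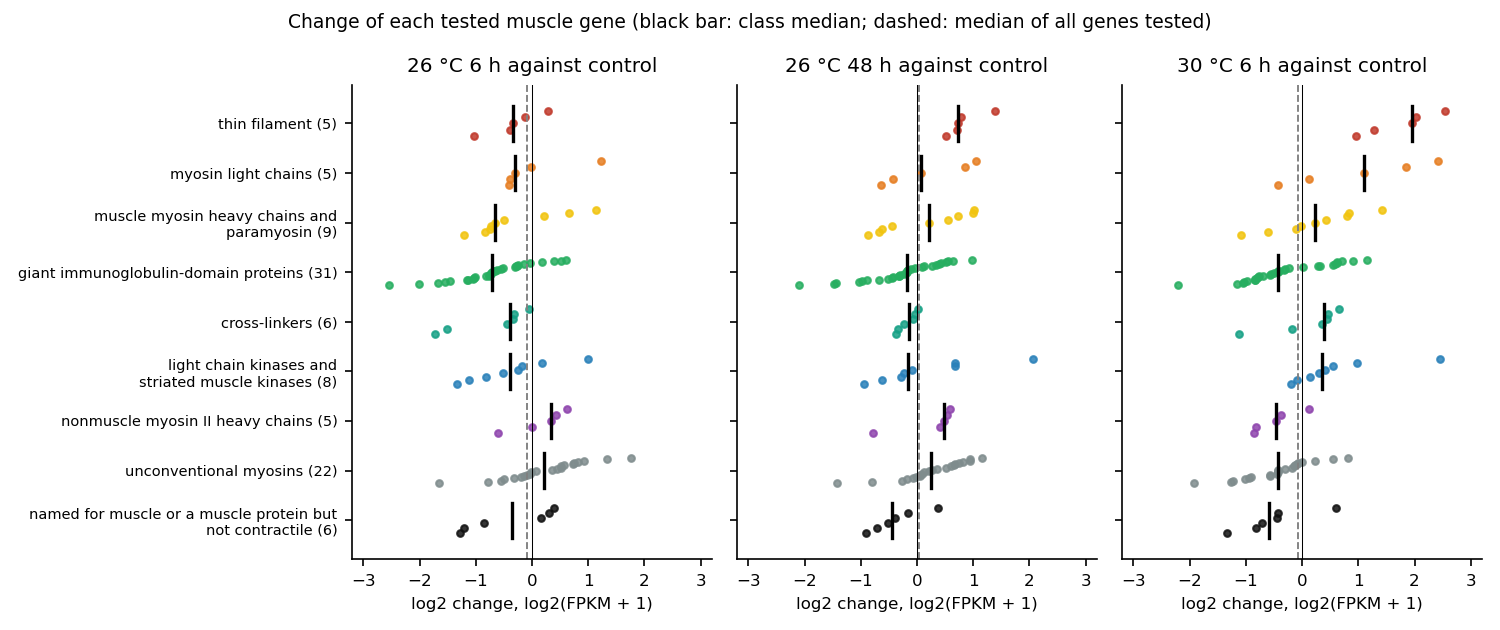
Log2 change of each of the 97 tested muscle genes on log2(FPKM + 1), by role class (number tested in brackets), for the 3 heated groups against control. Black bars mark class medians and dashed lines the median of all genes tested. At 30 °C the thin filament median is 1.95, the value of the low nonmuscle actin II, and that of the giant proteins -0.43.

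The class medians at 30 °C were 1.95 for the thin filament, 1.10 for the light chains, 0.40 for the cross-linkers, 0.36 for the kinases and 0.22 for the heavy chains. They were -0.43 for the giant proteins, -0.43 for the unconventional myosins, -0.46 for nonmuscle myosin II and -0.58 for the models that are muscle in name only. The thin filament median is the value of nonmuscle actin II (BSL78_13826), a low model with most of its reads in 1 animal at 30 °C. These medians describe few and partly neighbouring models, and no test was made of a class.

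How the reads on the 135 models divide among the classes does not depend on any scaling between libraries. At 30 °C the thin filament took 31.3, 36.3 and 42.9% of them in the 3 animals, against 20.7, 15.4 and 12.1% in controls. Its part at 26 °C was 13.8, 22 and 20.7% in the 6 h animals and 23.1, 21.4 and 20.4% in the 48 h animals. Light chains took 18.5, 19.5 and 20.8% at 30 °C, against 13, 14.3 and 15.7% in controls. All 3 animals at 30 °C were above all 9 others for both classes. Giant proteins took 11.7, 8.15 and 6.55% at 30 °C, against 14.3, 17.9 and 15.7% in controls, and unconventional myosins 1.92, 2.53 and 1.79%, against 3.87, 5.39 and 6.55%. The cross-linkers took 13.2, 11.7 and 13% at 30 °C, against 18.5, 22 and 23.9% in controls.

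Summed over thin filament and light chains, a pooling chosen after the values were seen, the part was 49.8, 55.8 and 63.7% at 30 °C, against 33.7, 29.7 and 27.8% in controls. At 26 °C it was 28.5, 35.5 and 30.9% in the 6 h animals and 37.0, 32.7 and 30.1% in the 48 h animals. Without muscle-specific protein 20 the part was 34.2, 37.8 and 44.7% at 30 °C, against 21.5, 23.2 and 23.4% in controls. The unc-89 model BSL78_02128 alone took 0.719, 0.319 and 0.397% at 30 °C, against 2.02, 6.65 and 5.74% in controls.

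**Figure D4:**
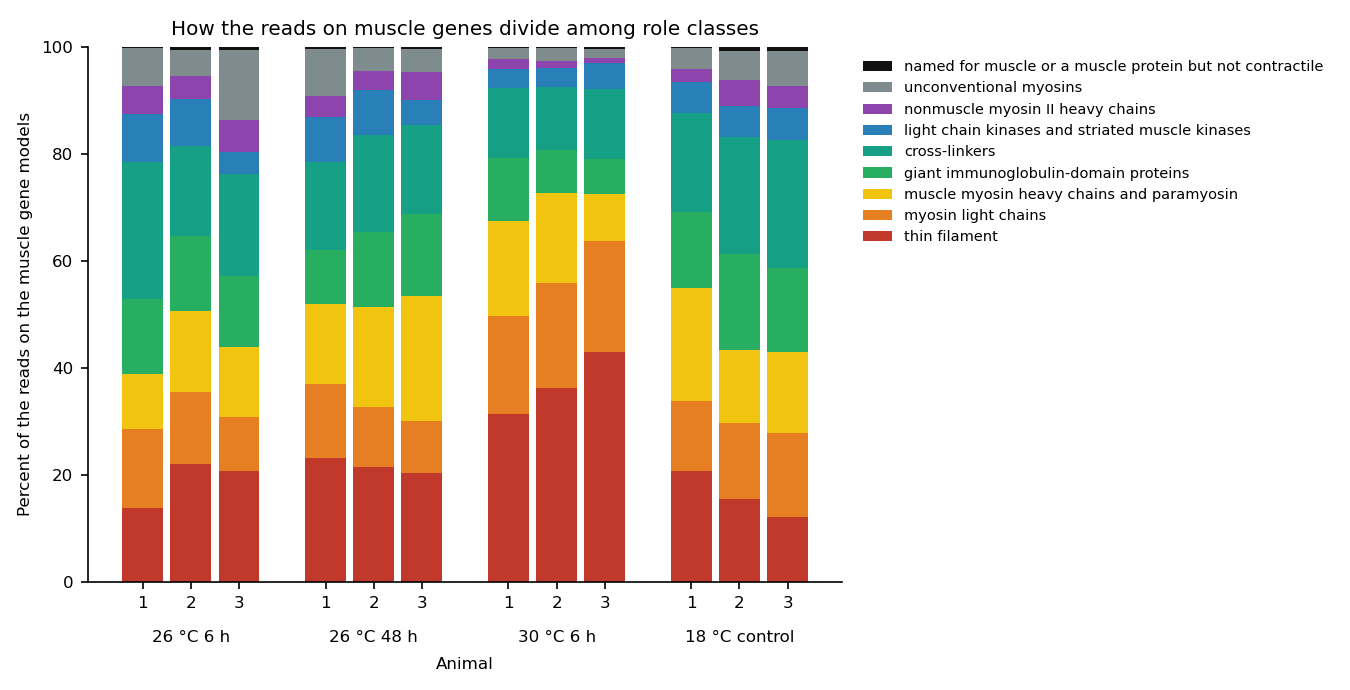
Percent of the reads on the 135 muscle gene models that fell on each role class, 1 stacked bar per animal, grouped by treatment. In the 3 animals at 30 °C the thin filament and light chains together reach 49.8 to 63.7%, against 27.8 to 33.7% in the 3 control animals.

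Gene length moved with part of these differences. The 5 thin filament models have a median coding length of 708 bases and the 5 light chains one of 468 bases, against 1354.5 bases for the giant proteins and 2182 bases for the unconventional myosins. The median log2 changes of other classes were not ordered by length. The cross-linkers, with the longest median of 2601 bases, had a median change of 0.40. Their part of the reads was lower at 30 °C, with a mean of 12.6% against 21.4% in controls. The models that are muscle in name only, with a median of 870.0 bases over all 14, had a median change of -0.58 over the 6 tested. Those 6 were 726 to 2931 bases long. The class lengths given here are over all models of a class and the changes over those tested. Over all genes that averaged 5 FPKM or more the median log2 change at 30 °C was 0.19 for the 4293 models of up to 1000 bases and -0.19 for the 759 above 2000 bases. Among the muscle genes of at least 5 FPKM it was 0.78 for the 14 short models and -0.10 for the 18 long ones. After 48 h at 26 °C all genes showed 0.03 and -0.01 in the same bins. The part of length in the class values at 30 °C was not tested.

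**Figure D5:**
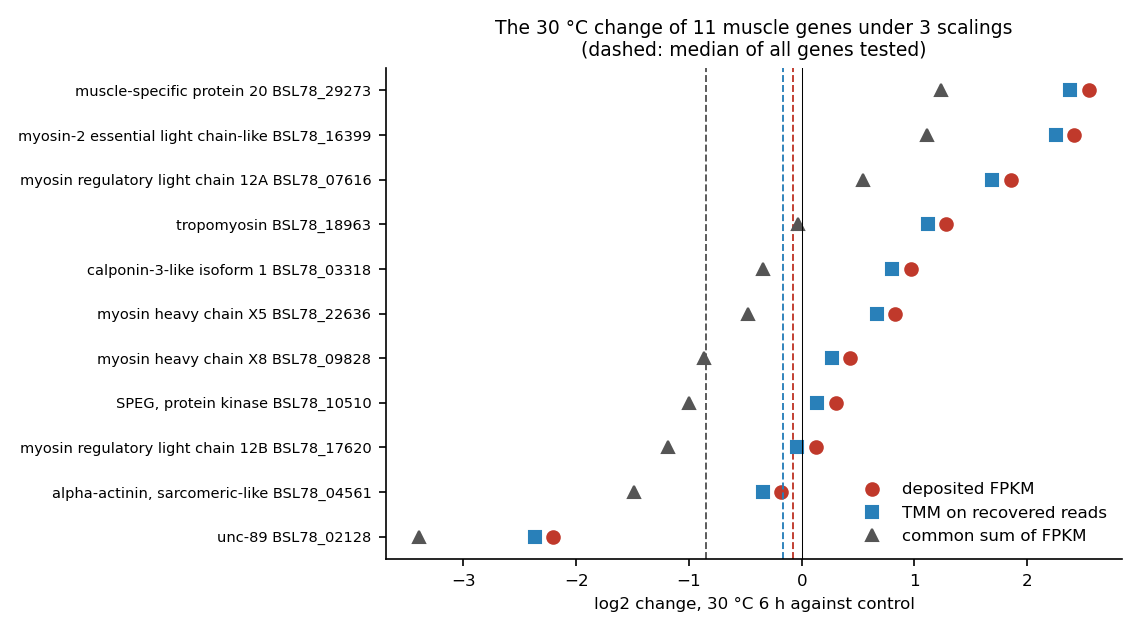
Log2 change of 11 muscle genes at 30 °C for 6 h against control, on log2(FPKM + 1), under 3 scalings of the libraries, with the median of all genes tested dashed in the same colour. The order of the genes is kept, while a common sum moves every gene left together with the median of all genes, which is -0.85 there and -0.07 with the deposited values.

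Scaling decides where 0 lies at 30 °C. The deposited FPKM of all genes sum to 2078693 to 3014690 in the 3 animals at 30 °C, against 562397 to 1535293 in the 3 controls. Rescaling each library to a common sum moved the median of all genes to -0.85. Relative to that median, muscle-specific protein 20 was at 2.08, the essential light chain at 1.96 and unc-89 at -2.54, against 2.62, 2.49 and -2.14 with the deposited scaling. On recovered reads scaled only by each library's total on genes (CPM), muscle-specific protein 20 had 1782, 2549 and 1252 CPM at 30 °C, against 981, 815 and 491 CPM in controls, and the groups still did not overlap. The essential light chain had 381, 391 and 189 CPM at 30 °C, against 83.3, 249 and 120.4 CPM in controls, which overlapped. The unc-89 model had 54.1, 28.1 and 14.5 CPM at 30 °C, against 127, 637 and 487 CPM in controls, without overlap.

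On deposited FPKM 9 of 97 muscle genes were higher than, and 6 lower than, every control in every animal at 30 °C. Over all genes 6.28% were higher and 7.98% lower. Between 30 °C and 26 °C at 6 h 14 were higher (7.01% of all genes) and 4 lower (5.88% of all genes). At 26 °C for 6 h 3 were higher than every control (4.81% of all genes) and 14 lower (7.15% of all genes), and after 48 h 7 were higher (5.84%) and 5 lower (4.85%). Between 48 h and 6 h at 26 °C 13 were higher (7.87% of all genes) and 1 lower (4.76%). In CPM at 30 °C 2 were higher (1.64% of all genes) and 29 lower (23.0% of all genes). For muscle genes the balance of the count at 30 °C thus turned with the scaling. Over all genes more were lower than higher on both scalings, and the excess was larger in CPM.

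The share of all reads on genes that fell on the 135 models was small in every group. It was 0.456, 0.668 and 0.559% in the 6 h animals at 26 °C, 0.824, 1.16 and 1.5% in the 48 h animals, 0.752, 0.881 and 0.364% at 30 °C, and 0.630, 0.959 and 0.848% in controls. The means were 0.561 ± 0.106%, 1.16 ± 0.338%, 0.666 ± 0.269% and 0.812 ± 0.167% in that order of groups (SD, n = 3 each). The 48 h animals were the highest as a group, with 1 of them inside the range of the controls. On the sum of deposited FPKM the muscle models took 0.401% in the 6 h animals at 26 °C, 0.743% in the 48 h animals and 0.591% at 30 °C, against 0.529% in controls.

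Animals of 1 group differed in a shared way. Of the 41 muscle genes with at least 5 FPKM, animal 3 was the lowest of the 3 at 30 °C in 30 (38.0% of all genes at that level) and animal 2 the highest in 27 (34.7% of all genes). Among the controls animal 3 was the lowest in 24 of 41 (33.9% of all genes). Without animal 3 at 30 °C the median log2 change of the 97 against control was 0.06, against -0.18 with it. The spread about the group means was smaller for the muscle genes than for all genes, with a median residual SD of 0.70 against 0.87 on the log2 scale.

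Other genes of the contraction pathway were searched by name, and 0 of each list were called in any comparison. Of all genes tested 0.0 to 0.651% were called in these comparisons. The lists hold 43 actins and actin regulators (40 tested), 53 models for calcium handling (39 tested) and 36 for attachment of muscle to its surroundings (25 tested). They also hold 8 for energy supply (4 tested) and 6 for muscle transcription (6 tested). Their median log2 changes at 30 °C were 0.04, -0.11, -0.04, -0.42 and -0.20. The most abundant actin (BSL78_24675) averaged 5734 ± 1392 FPKM at 30 °C, against 4572 ± 2612 FPKM in controls. Actin isoform 2 (BSL78_30139) averaged 1632 ± 110.3 FPKM at 30 °C, against 404 ± 224 FPKM in controls, and its lowest animal at 30 °C had 1535 FPKM, against 541 FPKM in the highest control (log2 2.23, adjusted p = 0.208). Calmodulin-like (BSL78_05530), the calcium sensor that switches on light chain kinase, averaged 2622 ± 1054 FPKM at 30 °C, against 1431 ± 506 FPKM in controls (log2 0.86, adjusted p = 0.625). Arginine kinase (BSL78_29586), which stores phosphate energy in invertebrate muscle, averaged 569 ± 56.8 FPKM at 30 °C, against 370 ± 145 FPKM in controls (log2 0.68, adjusted p = 0.734). Talin-1 (BSL78_24455), which ties actin to the cell surface, averaged 111 ± 9.87 FPKM at 30 °C, against 149 ± 73.8 FPKM in controls (log2 -0.32, adjusted p = 0.875). All of these are SD over 3 animals. The transcription list holds 2 models that match by wording alone, twisted gastrulation and a serum response factor-binding protein.

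Markers of other cell types in the gut were read beside these values. Of 96 markers of gut epithelium and digestive glands 70 were tested and 1 was called at 30 °C, where 0.651% of all genes were called. It was alpha-amylase 4N (BSL78_20389, log2 5.12, adjusted p = 0.00742). Of the 70, 46 had a log2 change above 0 at 30 °C, beside 8617 of all 18729 genes tested. Villin-1-like (BSL78_02148), 1 of the 2 most abundant of the list, averaged 173 ± 103 FPKM at 30 °C, against 476 ± 265.5 FPKM in controls (SD, n = 3 each). Its log2 change was -1.59 (adjusted p = 0.400). The summed level of that list spanned 1307 to 7639 FPKM at 30 °C, against 1238 to 2745 FPKM in controls, and 5 of the 96 had no read in any library. For neurons (46 of 81 tested, 15 with no read) the sum spanned 213 to 635 FPKM at 30 °C, against 226 to 269 FPKM in controls. For the germ line (13 of 20 tested) it spanned 84.2 to 488 FPKM at 30 °C, against 78.1 to 638 FPKM in controls. Coelomocyte and body fluid genes (52 of 96 tested, 17 with no read), which include the 2 major yolk proteins, summed to 59972 to 198124 FPKM at 30 °C, against 24921 to 172948 FPKM in controls. Their median log2 change at 30 °C was 1.19. In these last 3 lists 0 genes were called at 30 °C. The part of cell makeup in the muscle values was not tested.

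Depth was moderate, with 1788303 to 3956056 reads on genes per library. Thinned to 1 common depth, 12733, 14743 and 16777 genes were seen in the 6 h animals at 26 °C, 16050 to 19175 in the 48 h animals and 12557 to 14851 at 30 °C, against 15287 to 18582 in controls. All 3 animals at 30 °C and 2 of 3 after 6 h at 26 °C were thus below every control. The part of this in the low titin and myosin models was not tested.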

How the data were processed

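The authors deposited FPKM values for 30221 gene models, with descriptions, scaffold positions and lengths, per the file headers. Per the labels' protocols, RNA of each animal was extracted with Trizol and sequenced on an Illumina HiSeq. Which aligner, counting tool, strand setting and genome build were used is not given in the sources used here, so reads of overlapping, antisense or near-identical genes may be mixed. Of the deposited lengths 94.0% are multiples of 3 and are called coding lengths. The FPKM times length were whole multiples of 1 step per library for 100% of values (tolerance 0.05 reads), which gave back whole reads. Groups and animal numbers came from the sample titles, and 0 other value columns were present. All genes that averaged 0.5 FPKM or more were fitted on log2(FPKM + 1) by limma 3.58.1 (R 4.3.3), with 1 mean per group, all 12 libraries and 5 comparisons plus an F test (two-sided, Benjamini-Hochberg, 0.05). The fit was tested on simulated data. Same-numbered animals did not deviate together (correlations of -0.18 to 0.146 over 18 pairs), so no block was used. Alternatives were another pseudocount, other filters, a common sum, TMM computed in Python 3.11.15 from the whole reads, an intensity trend, voom, a replicate block, only the groups compared and leaving out animals. Named genes are the 10 muscle genes with the highest mean, the 2 highest of each class and the 3 with the smallest p in each comparison. Others were named outside this rule, and the text marks only some of them as chosen by their values. BSL78_22736, BSL78_02112, BSL78_02141, BSL78_13826 and BSL78_03590 are also outside the rule. The gene set, classes and lists were chosen with earlier results of these data known.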

Additional observations from a re-analysis of the deposited data

How the results depend on the processing

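Of the muscle genes 0 were called under every alternative run, including each animal left out in turn, except 1 with voom at 30 °C against control. The planned edgeR quasi-likelihood test was not run, since the deposited values are FPKM. Counts over all genes varied more, with causes not tested. After 6 h at 26 °C 12 genes were called, against 7 with no filter, 25 with a floor of 5 FPKM, 6 on a common sum, 6 with the trend, 3 with the replicate block, 19 with voom, 0 with only the groups compared, 40 without both animal 1 at 26 °C for 6 h and animal 3 at 30 °C (added after seeing the data) and 4 to 30 with 1 animal left out. After 48 h it was 0, against 1 on a common sum, 1 with the block and 0 to 1 with 1 animal left out. At 30 °C it was 122, against 60 on a common sum, 9 with only the groups compared, 263 without both animals and 36 to 245 with 1 left out. Between 30 °C and 26 °C it was 46, against 23 with no filter, 1 on a common sum, 17 with the block, 8 with voom, 0 with only the groups compared, 83 without both animals and 1 to 142 with 1 left out. Between 48 h and 6 h it was 2, against 4 with a pseudocount of 0.1, 1 with TMM, 1 with the block, 0 with only the groups compared, 3 without both animals and 1 to 4 with 1 left out. The F test called 104, against 56 with no filter, 39 on a common sum, 63 with the block, 176 without both animals and 20 to 191 with 1 left out. The median change of the muscle genes at 30 °C was -0.18, against 0.22 with a floor of 5 FPKM, 0.06 without animal 3 at 30 °C and -1.06 on a common sum. Between 30 °C and 26 °C it was 0.23, against -0.35 on a common sum, where all genes were at -0.52. Of 500 values of named genes under alternatives 489 kept direction and side of the threshold, 1 became a call and 10 turned sign, all at 30 °C. On a common sum regulatory light chain 12B was at -1.19, tropomyosin at -0.029, calponin-3-like at -0.34, myosin heavy chain X8 at -0.87, the kinase BSL78_10510 at -1.0 and heavy chain X5 at -0.47. Chain 12B was also at -0.041 with TMM and at -0.10 to 0.31 with 1 animal left out, and heavy chain X8 at -0.129 to 1.001. The share of reads on the 135 models with 1 animal left out was 0.507 to 0.613% after 6 h at 26 °C, 0.992 to 1.33% after 48 h, 0.558 to 0.816% at 30 °C and 0.739 to 0.904% in controls, and on summed FPKM it was 0.401, 0.743, 0.591 and 0.529%.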
